A study of Mus musculus with 6 samples.

Results

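The 10 genes described here protect cells from apoptosis. They comprise the antiapoptotic members of the BCL2 family (Bcl2, Bcl2l1, Bcl2l2, Mcl1 and the copies Bcl2a1a, Bcl2a1b and Bcl2a1d, 7 genes) and the inhibitor of apoptosis (IAP) genes Birc2, Birc3 and Xiap (3 genes). They were taken as a named list of this gene family, and all 10 were found among the 25044 genes of the count table and had enough reads to be tested. RNA had been sequenced, after removal of ribosomal RNA, from peritoneal macrophages of wild-type C57BL/6 mice aged 8 weeks, washed out 3 days after thioglycollate broth, an irritant that recruits monocytes, had been injected. Non-adherent cells were removed after 1 h and the rest kept in culture for 24 h. The cells then received vehicle (DMSO) or 100 nM trametinib for 2 h, followed by 100 ng/ml LPS for 12 h, with 3 libraries per group. Trametinib inhibits MEK1 and MEK2, the kinases that activate ERK, and LPS is the bacterial ligand of the receptor TLR4. Both groups received LPS, and no culture without LPS is among the samples, so what LPS itself induced is not measured. The labels name 3 mice for the study and do not say which mouse gave which library, so p-values measure the spread between these libraries.

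Apoptosis through mitochondria is decided among BCL2 proteins. BH3-only proteins such as BIM sense stress and bind the antiapoptotic members BCL-2, BCL-XL, BCL-W, MCL-1 and A1, which otherwise hold the pore-forming proteins BAX and BAK in check. IAP proteins act further on: XIAP binds and blocks caspases, while cIAP1 and cIAP2, encoded by Birc2 and Birc3, are ubiquitin ligases of the TNF receptor complex that keep RIPK1 from triggering death. A1 and cIAP2 are known targets of NF-kappaB in activated myeloid cells, and MCL-1 is the BCL2 protein on which neutrophils rely.

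Bcl2a1a, Bcl2a1b and Bcl2a1d arose by duplication in the mouse and differ at so few bases that their sequences decide how far their counts can be told apart. In GENCODE M21 on mm10 their coding sequences, 519 bases each, differed at 12 positions among the 3 copies. Coding bases 1 to 90 are shown because they hold 6 of those positions, given in capitals. They lie at chr9:88957051-88957140 (plus strand) in Bcl2a1a, at chr9:89199360-89199449 (plus strand) in Bcl2a1b and at chr9:88731630-88731719 (minus strand) in Bcl2a1d.
Bcl2a1a: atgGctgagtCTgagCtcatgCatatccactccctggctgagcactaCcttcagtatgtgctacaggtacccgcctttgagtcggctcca
Bcl2a1b: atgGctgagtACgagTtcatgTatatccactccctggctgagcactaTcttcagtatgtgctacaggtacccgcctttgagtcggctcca
Bcl2a1d: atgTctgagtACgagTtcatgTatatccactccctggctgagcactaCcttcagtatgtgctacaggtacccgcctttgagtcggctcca
The coding sequences of Bcl2a1a and Bcl2a1b were 97.9% identical, those of Bcl2a1a and Bcl2a1d 98.7% and those of Bcl2a1b and Bcl2a1d 98.8%. Of all 100-base windows of the Bcl2a1a transcript, 43.5% occurred unchanged in another copy, against 31.1% for Bcl2a1b and 54.7% for Bcl2a1d. With 150-base windows these shares were 28.2%, 14.2% and 30.3%. Reads from such windows cannot be placed on 1 copy. How they were counted is not given in the sources used here, so the 3 copies were also summed into 1 feature.

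The copies are also alike before their start sites, where the few differing letters can be compared. The stretches below are RefSeq promoter sequence of GRCm38.p6, read 5′ to 3′ on the strand of the gene and lying before the RefSeq start site. Capitals mark the AP-1 motif TGANTCA, the PU.1-type ETS motif GAGGAAGT and the EGR motif GCGNGGGCG, searched on both strands.
Bcl2a1a (chr9:88956734-88956901, plus strand): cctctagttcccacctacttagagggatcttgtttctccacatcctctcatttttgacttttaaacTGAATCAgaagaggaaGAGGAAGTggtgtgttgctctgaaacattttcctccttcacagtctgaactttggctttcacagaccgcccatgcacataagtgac
Bcl2a1b (chr9:89199043-89199210, plus strand): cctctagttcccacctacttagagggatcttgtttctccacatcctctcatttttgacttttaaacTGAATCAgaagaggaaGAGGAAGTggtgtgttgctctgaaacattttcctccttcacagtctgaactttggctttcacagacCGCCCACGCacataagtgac
Bcl2a1d (chr9:88731869-88732030, minus strand): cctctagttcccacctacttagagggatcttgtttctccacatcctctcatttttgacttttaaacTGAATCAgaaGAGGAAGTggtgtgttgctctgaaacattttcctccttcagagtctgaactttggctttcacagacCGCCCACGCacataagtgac
The Bcl2a1a and Bcl2a1b stretches matched at 167 of 168 bases. Bcl2a1d lacked 6 of these bases between the AP-1 and PU.1-type motifs. All 3 held the AP-1 motif, found in the 250 bases before the start in 6.75% of 32851 promoters, and the PU.1-type motif, found in 2.44%. The EGR motif, on the opposite strand, stood in Bcl2a1b and Bcl2a1d and not in Bcl2a1a, and 4.70% of promoters held it. The ETS core CCGGAAG (6.91% of promoters), a kappaB motif (1.41%) and the FOXO motif TGTTTAC (3.17%) were searched too and were in none of the 3. Of the other antiapoptotic genes, Mcl1 held the ETS core and the kappaB motif, Birc2 the ETS core at 1 of 2 starts and Bcl2l1 the kappaB motif at 1 of 3 starts. None of the 6 motifs was found in these windows for Bcl2, Bcl2l2, Birc3 or Xiap. Bcl2l11, a proapoptotic gene described further on, held the EGR, ETS core and FOXO motifs at 1 of 2 starts. Matches therefore stood in genes that fell, that rose and that did not pass. They describe letters only, and no binding was measured.

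The libraries held 17453778 to 19648467 counts, and values below are counts per 1000000 (CPM) after scaling of the libraries. Macrophage markers summed to 15770 to 17550 CPM in the vehicle and 14760 to 16390 CPM in the trametinib libraries, most of it Lyz2. Within this list Adgre1 stood at 1476 to 1865 and 860 to 982 CPM and Mertk at 99.2 to 106 and 182 to 251 CPM, so single macrophage markers stood apart between the groups in both directions. Neutrophil markers, of which Retnlg was at 0 in every library, summed to 4.59 to 7.34 and 4.29 to 10.5 CPM. B cell markers reached at most 0.335 and 0.709 CPM, and T and NK cell markers at most 0.280 and 0.236 CPM. Eosinophil markers ran from 0.702 to 3.25 and from 0.827 to 1.83 CPM, mast cell markers from 3.01 to 4.26 and from 4.23 to 7.14 CPM, markers of resident large peritoneal macrophages from 2.54 to 4.68 and from 3.17 to 4.30 CPM, and markers of fibroblasts and mesothelium from 0.324 to 0.953 and from 0.414 to 1.34 CPM. Dendritic cell markers ran from 2.35 to 8.21 CPM with vehicle and from 12.9 to 24.6 CPM with trametinib, of which Ccr7 made up 0.673 to 7.07 and 10.3 to 22.5 CPM, and Flt3 at most 0.0561 and 0.177 CPM. Mitochondrially encoded mRNAs were at 6791 to 8209 CPM with vehicle, and at 7587, 17880 and 7824 CPM with trametinib. Trametinib replicate 2 was the highest of its group for mt-Nd4, mt-Co1, mt-Co2, mt-Co3 and mt-Atp6, but not for mt-Nd1, mt-Nd2, mt-Nd5 or mt-Cytb. For mt-Co2 it stood at 2156 CPM and vehicle replicate 2 at 110 CPM, with the remaining libraries at 3.01 to 6.26 CPM. Of 11 tested genes of ERK output 9 fell, where 18.4% of all tested genes did, among them Egr1, while the drug targets' own mRNAs did not pass (log2 fold change 0.01, SE 0.12, for Map2k1 and 0.01, SE 0.09, for Map2k2), which says nothing of inhibition of the proteins. Vehicle replicate 3 stood apart: on the first principal component (70.8% of the variance) it lay at −14.8, against −34.8 and −33.9 for the other vehicle libraries and 23.2 to 31.7 for the trametinib libraries.

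Trametinib lowered 5 of the 10 antiapoptotic genes and raised 1, and 4 did not pass. The genes that fell were Bcl2, Bcl2l1 and the 3 Bcl2a1 copies, and the one that rose was Birc2. The copies share much sequence, so their falls are not separate observations. With the copies summed into 1 feature, 3 features fell and 1 rose. The threshold was an adjusted p under 0.05 in edgeR's quasi-likelihood test over 11286 genes, and by it 34.3% of all tested genes changed, 18.4% lower and 15.8% higher. The groups did not overlap in 8 of the 10 genes, 6 lower and 2 higher with trametinib, where 49.3% of all tested genes had groups that did not overlap, 25.9% lower and 23.4% higher. Bcl2, Bcl2l1 and Bcl2a1b fell at least 2-fold and none of the 10 rose that far, where 3.66% of all tested genes fell and 2.94% rose at least 2-fold. The median log2 fold change of the 10, with each copy taken as a gene of its own, was −0.36, against −0.01 over all tested genes. With the replicate number as a block, Mcl1 also rose and Xiap also fell, giving 6 lower and 2 higher, where 42.8% of all tested genes passed, 22.4% lower and 20.5% higher. Without vehicle replicate 3 the calls were again 5 lower and 1 higher, where 40.8% of all tested genes passed, 21.4% lower and 19.3% higher. Without vehicle replicate 1 or 2, or without trametinib replicate 1, 2 or 3, none of the 10 rose and 4 fell. In these fits 22.2%, 23.0%, 21.2%, 23.1% and 31.8% of all tested genes passed in either direction, in that order. Of their 11435 to 11442 tested genes, 1068 to 1675 rose and 1360 to 1957 fell.

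**Figure D1:**
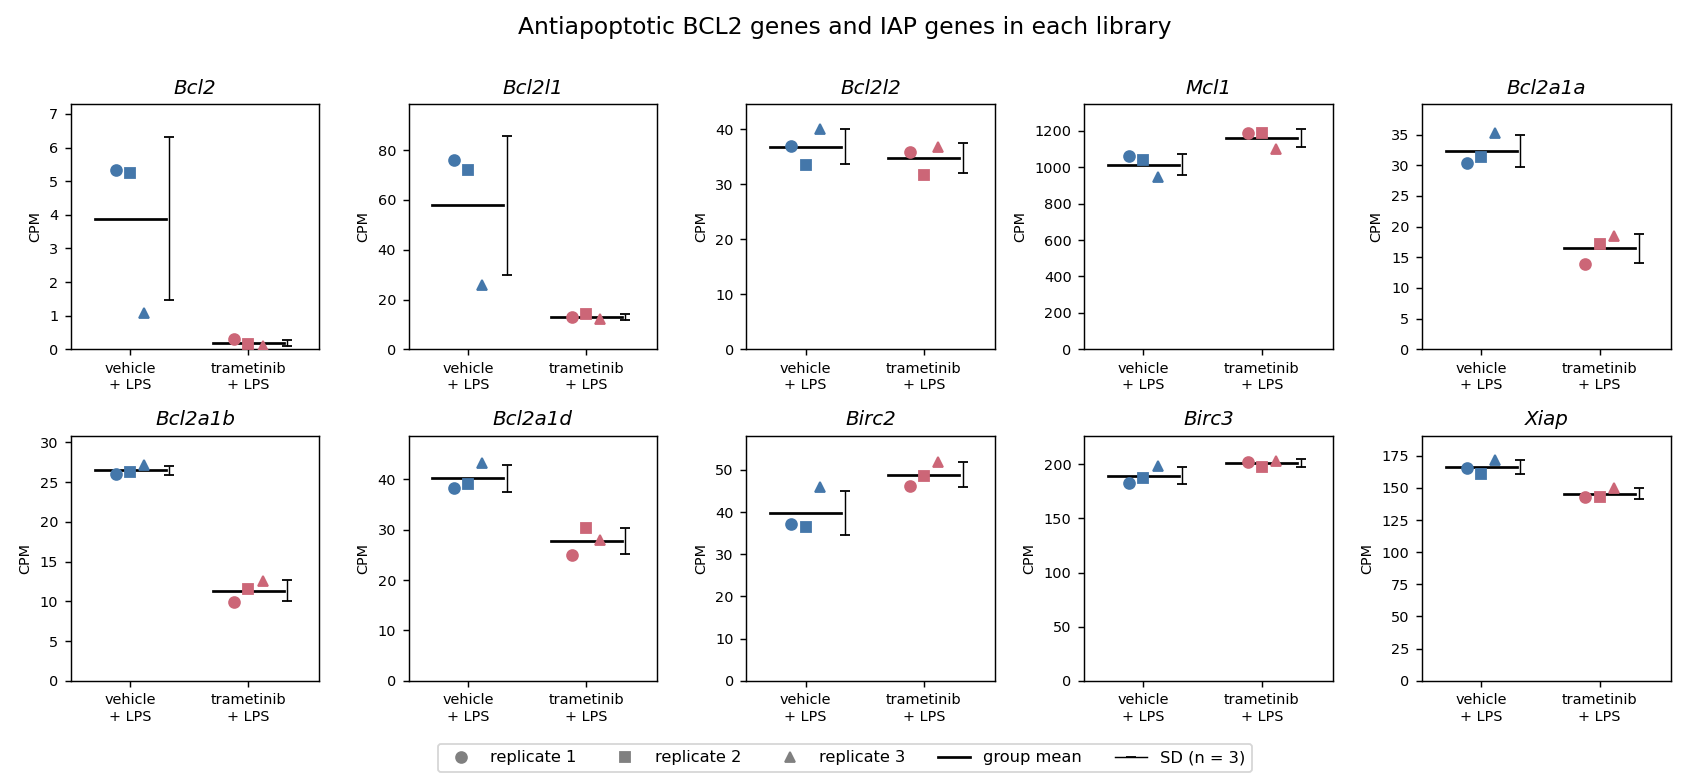
CPM of each of the 10 antiapoptotic genes (vertical axes from 0, a scale per gene) in the 3 vehicle and 3 trametinib libraries, with marker shape for the replicate number, a line for the group mean and a bar for the SD. Bcl2 and Bcl2l1 show vehicle replicate 3 between the other vehicle libraries and the trametinib libraries, whereas the Bcl2a1 copies do not.

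Bcl2l1, on chromosome 2 (ENSMUSG00000007659, mm10 152780668 to 152831728, minus strand), encodes BCL-XL, which guards mitochondria in many long-lived cells. It stood at 75.9, 71.9 and 25.8 CPM in vehicle replicates 1, 2 and 3 and at 12.8, 14.2 and 12.1 CPM with trametinib. All 3 trametinib libraries lay below every vehicle library, and vehicle replicate 3 lay far below the other vehicle libraries. The means were 57.9 ± 27.9 and 13.1 ± 1.09 CPM (SD, n = 3 per group), a 4.43-fold fall (log2 fold change −2.15, SE 0.45, adjusted p 0.0193). Without vehicle replicate 3 the change was −2.50 (SE 0.09, adjusted p 3.27e-08). Leaving out any other single library gave −1.90 to −2.21 and adjusted p values of 0.0566 to 0.0687. Without a filter on low counts the adjusted p was 0.0524, and over all alternatives it ran from 3.27e-08 to 0.0687. Counts per gene do not separate the long, protective transcript of Bcl2l1 from its short, proapoptotic splice form.

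Bcl2, the founding gene of the family (ENSMUSG00000057329, chromosome 1, 106538178 to 106714274, minus strand), was scarce in these cells. It had 95, 94 and 20 counts in the vehicle libraries and 5, 3 and 2 counts in the trametinib libraries, or 5.33, 5.24 and 1.08 CPM against 0.296, 0.161 and 0.111 CPM. The groups did not overlap, and vehicle replicate 3 was again the lowest of its group. Bcl2 fell (log2 fold change −4.32, SE 0.82, adjusted p 0.00786) and did so under each of 13 alternatives, with log2 fold changes of −4.77 to −3.94. Its standard error was the largest of the 10 genes, and was 0.31 without vehicle replicate 3 and 0.32 with the replicate block. An antisense transcript shares 558 exon bases (6.09%) with Bcl2 in the annotation, and it is not among the genes counted.

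In vehicle replicate 3 both genes lay most of the way to their trametinib level. On the log2(CPM + 0.5) scale, the distance from the mean of vehicle replicates 1 and 2 to the trametinib mean was covered to 61.0% for Bcl2l1 and 60.8% for Bcl2. The 9 ERK output genes that fell lay between as well in this library, from 23.3% of the way for Spry1 to 67.3% for Etv5, with 31.5% for Spred1 (Etv5 was singled out after its value was seen). For Bcl2a1b it was −4.37%, which places this library on the far side of the other vehicle libraries. These shares are descriptions of 1 library, and why it stands apart was not tested.

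The Bcl2a1 copies encode A1, a short-lived protein made by activated myeloid cells. Bcl2a1b (ENSMUSG00000089929, chromosome 9, 89199209 to 89207827, plus strand) stood at 26.1, 26.3 and 27.2 CPM with vehicle and at 9.93, 11.6 and 12.5 CPM with trametinib. The vehicle libraries lay close together, and no trametinib library reached them. Its log2 fold change was −1.22 (SE 0.10, adjusted p 0.000178), and it passed under all 13 alternatives with values of −1.30 to −1.14. Bcl2a1a (ENSMUSG00000102037, 88956900 to 88962419, plus strand) stood at 30.3, 31.4 and 35.2 CPM with vehicle and at 13.8, 17.1 and 18.4 CPM with trametinib. Every trametinib value was well under the lowest vehicle value, and Bcl2a1a fell by 0.97 on the log2 scale with an SE of 0.12 (adjusted p 0.000595). Bcl2a1d (ENSMUSG00000099974, 88723285 to 88731914, minus strand) had 38.2, 39.1 and 43.3 CPM with vehicle and 25.0, 30.3 and 28.0 CPM with trametinib. The groups were again apart, and it fell by 0.53 (SE 0.09, adjusted p 0.00297). For all 3 copies vehicle replicate 3 was the highest vehicle library, the reverse of its place for Bcl2 and Bcl2l1.

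Summed into 1 feature, the copies stood at 94.6, 96.9 and 106 CPM with vehicle and at 48.8, 59.0 and 58.9 CPM with trametinib. The sum fell 1.78-fold (log2 fold change −0.83, SE 0.09, adjusted p 0.000423), and passed in every alternative with adjusted p values of 9.36e-12 to 0.00369. The makeup of the sum, looked at after the values were seen, also stood apart between the groups. The ratio of Bcl2a1b to Bcl2a1d counts was 0.682, 0.672 and 0.627 in the vehicle libraries and 0.397, 0.383 and 0.447 in the trametinib libraries, groups that did not overlap (exact permutation test, two-sided, p = 0.1, the smallest that 3 against 3 libraries allow). The ratio of Bcl2a1a to Bcl2a1d was 0.793 to 0.813 with vehicle and 0.553 to 0.658 with trametinib (exact permutation test, two-sided, p = 0.1). Bcl2a1c, another copy outside the 10 genes that was singled out after its values were seen, had 108 counts with vehicle and 51 with trametinib. It fell by 1.05 (SE 0.26, adjusted p 0.0138). This call was lost without trametinib replicate 1 or 2 (adjusted p 0.0588 and 0.0574), and its lowest adjusted p was 0.00912. Gm29094, annotated on the same strand, shares 401 exon bases with Bcl2a1b (49.1% of the exon length of Bcl2a1b). It is not among the genes counted, and how reads over the shared bases were treated is not given.

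Mcl1 (ENSMUSG00000038612, chromosome 3, 95658788 to 95663176, plus strand), whose protein turns over within short times and sequesters BIM and NOXA, was the most abundant of the 10 genes. It stood at 1060, 1038 and 948 CPM with vehicle and at 1187, 1191 and 1103 CPM with trametinib. Every trametinib library lay above every vehicle library, by a small margin. The log2 fold change was 0.19 (SE 0.08, adjusted p 0.0815), which did not pass. With the replicate number as a block Mcl1 passed (log2 fold change 0.19, SE 0.05, adjusted p 0.0179), whereas the other alternatives reached adjusted p values of up to 0.234. Of the 7 tested genes that control turnover of the MCL-1 protein, Fbxw7, a ubiquitin ligase subunit, rose from 29.5 ± 2.01 to 43.1 ± 6.09 CPM (adjusted p 0.00604) and none fell, against 15.8% and 18.4% of all tested genes. The kinase Gsk3b had 99.1 ± 3.31 and 88.2 ± 1.58 CPM (adjusted p 0.0540), and Trim17, a ubiquitin ligase, 0.957 ± 0.201 and 1.54 ± 0.315 CPM (adjusted p 0.0876). With the replicate block 2 of the list fell, where 22.4% of all tested genes did. These were Gsk3b (adjusted p 0.0478, and up to 0.180 elsewhere) and Huwe1, a ubiquitin ligase of MCL-1 that was singled out after its value was seen (log2 fold change −0.24, adjusted p 0.0121, and up to 0.594 elsewhere). RNA levels do not give the amount of MCL-1 protein.

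Bcl2l2 (ENSMUSG00000089682, chromosome 14, 54883377 to 54888234, plus strand), which encodes BCL-W, did not pass. It ran from 33.5 to 40.0 CPM with vehicle and from 31.6 to 36.7 CPM with trametinib, overlapping groups. Its log2 fold change was −0.08 with an SE of 0.09 (adjusted p 0.518). Gm20521, annotated on the same strand and not among the genes counted, shares 13.3% of the exon bases of Bcl2l2.

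Of the IAP genes only Birc2 passed, with a small rise. Birc2, encoding cIAP1 (ENSMUSG00000057367, chromosome 9, 7818227 to 7837064, minus strand), stood at 37.2, 36.5 and 45.9 CPM with vehicle and at 46.2, 48.6 and 51.9 CPM with trametinib. Vehicle replicate 3 lay just under the lowest trametinib library. Birc2 rose 1.23-fold (log2 fold change 0.30, SE 0.10, adjusted p 0.0488). Without vehicle replicate 3 it was 0.41 (SE 0.08, adjusted p 0.00244), and without any other single library the call was lost (adjusted p 0.0813 to 0.168). Its neighbour Birc3, encoding cIAP2 (ENSMUSG00000032000, 7848699 to 7873186, minus strand), ran from 183 to 198 CPM with vehicle and from 197 to 203 CPM with trametinib. These groups overlapped, and the log2 fold change of 0.09 (SE 0.07, adjusted p 0.392) did not pass. Xiap (ENSMUSG00000025860, chromosome X, 42059679 to 42109656, plus strand) stood at 166, 161 and 172 CPM with vehicle and at 143, 143 and 150 CPM with trametinib. The groups were apart, but the log2 fold change of −0.19 (SE 0.07, adjusted p 0.0554) did not pass. It was called under 2 alternatives, the replicate block (adjusted p 0.0236) and limma-voom (adjusted p 0.0453), and the highest adjusted p was 0.170.

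**Figure D2:**
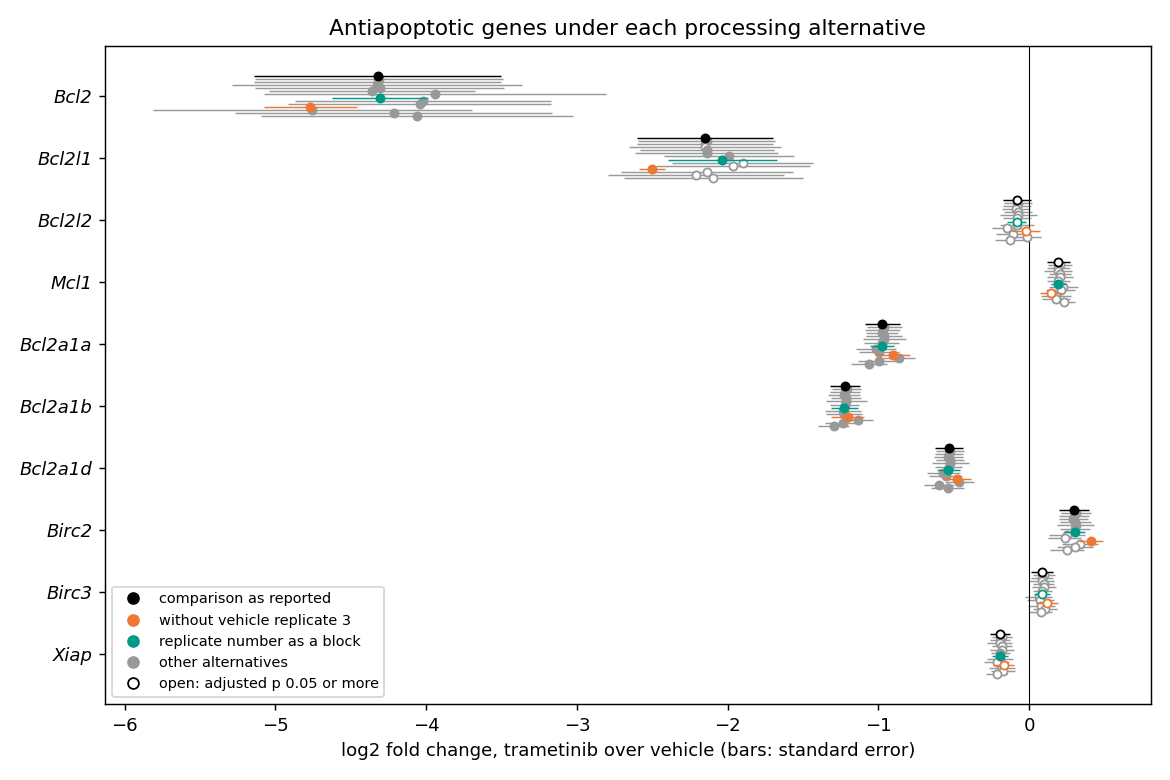
Log2 fold change (trametinib over vehicle, horizontal axis, bars for the standard error) of each antiapoptotic gene as reported and under 13 alternatives, with filled points for an adjusted p under 0.05. Bcl2, Bcl2a1a, Bcl2a1b and Bcl2a1d are filled throughout, Bcl2l1 and Birc2 open when libraries other than vehicle replicate 3 are left out, and no gene changes sign.

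Levels were compared between genes as CPM per kilobase of annotated exon sequence. In vehicle libraries Mcl1 led at 297 ± 17.4 CPM per kb (SD, n = 3), followed by Bcl2a1d (46.6 ± 3.14), Bcl2a1a (39.5 ± 3.13), Birc3 (37.8 ± 1.55) and Bcl2a1b (32.5 ± 0.702). Bcl2a1a and Birc3 overlapped across libraries, so their order is not set. Xiap (17.6 ± 0.550) came next. Below it were Bcl2l1 (12.6 ± 6.08), Birc2 (8.70 ± 1.14) and Bcl2l2 (8.24 ± 0.722), whose libraries overlapped in turn. Bcl2 was last at 0.424 ± 0.265 CPM per kb. With trametinib Mcl1 (340 ± 14.6) still led and Bcl2 (0.0207 ± 0.0104) was still last, while Birc3 (40.1 ± 0.697) stood second and Bcl2l1 (2.84 ± 0.239) ninth, below Bcl2l2 (7.78 ± 0.607) in every trametinib library. Xiap (15.4 ± 0.445) and Bcl2a1b (13.9 ± 1.61) overlapped. The exon length used holds every annotated exon. Reads shared between Bcl2a1 copies, or with an overlapping gene, may be missing from the levels, so the order is approximate.

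The summed level of the 7 antiapoptotic BCL2 genes overlapped between the groups, while Mcl1 held a larger share of it in every trametinib library. These sums and shares were chosen after the values were seen. The sum was 449, 443 and 418 CPM per kb with vehicle and 416, 429 and 404 CPM per kb with trametinib, overlapping groups (exact permutation test, two-sided, p = 0.2). Between same-numbered libraries it was lower with trametinib in 3 of 3 pairs (exact paired permutation test, two-sided, p = 0.25, the smallest that 3 pairs allow). Mcl1 made up 69.1%, 68.5% and 66.3% of it with vehicle and 83.5%, 81.3% and 79.9% with trametinib. The Bcl2a1 copies made up 25.2%, 26.1% and 30.2% with vehicle and 13.9%, 16.4% and 17.4% with trametinib. Bcl2l1 held 3.69%, 3.54% and 1.34% with vehicle and 0.672%, 0.724% and 0.652% with trametinib. For these 3 shares the groups did not overlap, and each had p = 0.1 (exact permutation test, two-sided), the smallest possible here. Shares of the same sum depend on one another, so these are not separate results. Mcl1 was higher and the rest of the sum lower in every trametinib library than in any vehicle library. The outcome for the Mcl1 share was therefore fixed in advance. The Bcl2a1 copies and Bcl2l1 were themselves apart between the groups, so the tests of these shares add nothing to the results of the single genes. Bcl2l2 held 1.89 ± 0.227% and 1.87 ± 0.198% (exact permutation test, two-sided, p = 0.9).

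**Figure D3:**
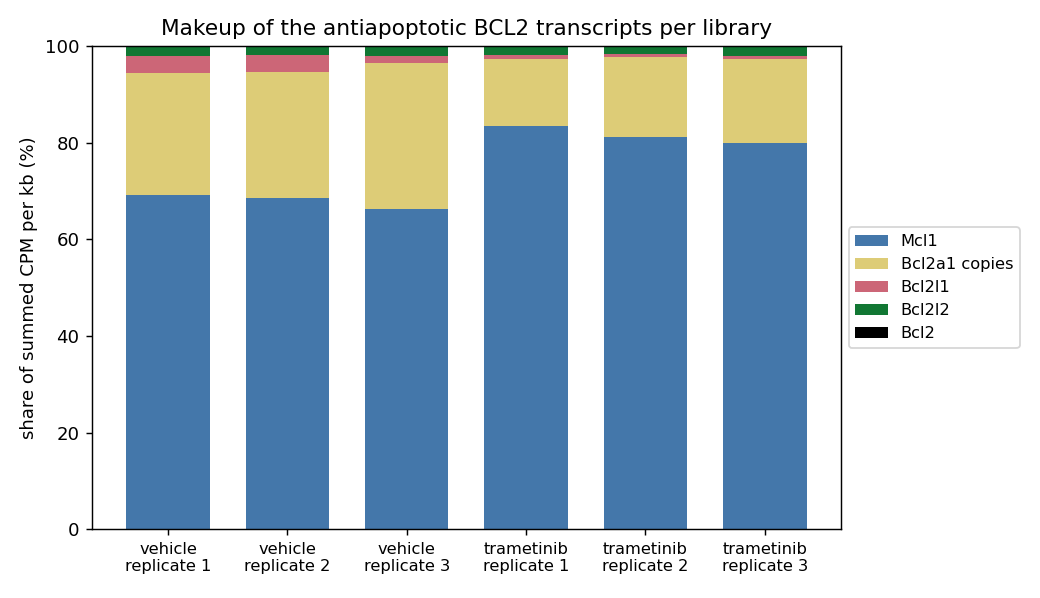
Share of the summed level (CPM per kb, vertical axis in percent) of the antiapoptotic BCL2 genes that each contributed in each library, with the 3 Bcl2a1 copies drawn as 1 block. Mcl1 takes 66.3% to 69.1% in the vehicle and 79.9% to 83.5% in the trametinib libraries, and Bcl2 is too scarce to be seen.

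The proapoptotic genes that the antiapoptotic proteins restrain mostly went the other way. Of 8 tested genes 5 rose (Bcl2l11, Bbc3, Pmaip1, Bmf and Bad), 1 fell (Bid) and the pore genes Bax and Bak1 did not pass, where 15.8% of all tested genes rose and 18.4% fell. The median log2 fold change was 0.73. When 1 library was left out 2 to 5 rose, where 1068 to 2210 of 11435 to 11442 tested genes did. Without a filter on low counts 2 rose, where 1741 of 17220 genes did. Bok, Bik and Hrk had at most 1 count per library and were not tested. Bcl2l11, Pmaip1, Bmf, Bax and Bak1 were singled out after their values were seen. Bcl2l11, encoding BIM, which binds all antiapoptotic BCL2 proteins, stood at 42.7, 49.2 and 124 CPM with vehicle and at 278, 268 and 295 CPM with trametinib. Vehicle replicate 3 was again between the other vehicle libraries and the trametinib libraries, with 55.0% of the distance covered. Bcl2l11 rose 3.89-fold (log2 fold change 1.96, SE 0.45, adjusted p 0.0262), and 2.61 on the log2 scale without vehicle replicate 3 (adjusted p 3.74e-08). Its call was lost without any other single library (adjusted p 0.0540 to 0.0864) and without a filter on low counts (adjusted p 0.0668).

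Pmaip1, encoding the MCL-1 ligand NOXA, stood at 9.59, 7.86 and 20.4 CPM with vehicle and at 29.9, 30.9 and 39.1 CPM with trametinib (log2 fold change 1.40, SE 0.37, adjusted p 0.0356). Bmf, another BH3-only gene, stood at 3.81, 4.52 and 10.6 CPM with vehicle and at 17.1, 18.8 and 19.4 CPM with trametinib (log2 fold change 1.54, SE 0.37, adjusted p 0.0230). Vehicle replicate 3 was the highest vehicle library for both. Pmaip1 lost its call without any single library other than vehicle replicate 3 (adjusted p 0.0781 to 0.117), and Bmf without vehicle replicate 2 or any trametinib library (0.0564 to 0.0826). Over all alternatives their adjusted p ranged from 1.22e-05 to 0.117 and from 1.34e-06 to 0.0846. Bbc3, encoding PUMA, rose from 9.17 ± 1.89 to 18.4 ± 2.14 CPM (adjusted p 0.00177) and Bad from 24.5 ± 1.63 to 33.8 ± 3.64 CPM (adjusted p 0.00753), in every alternative. Bid, which caspase-8 cleaves, fell from 69.4 ± 6.39 to 50.8 ± 0.714 CPM (adjusted p 0.00316). Without vehicle replicate 3, 2 of the list fell, where 21.4% of all tested genes did. Bak1 was the other (adjusted p 0.0422, and up to 0.607 elsewhere).

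**Figure D4:**
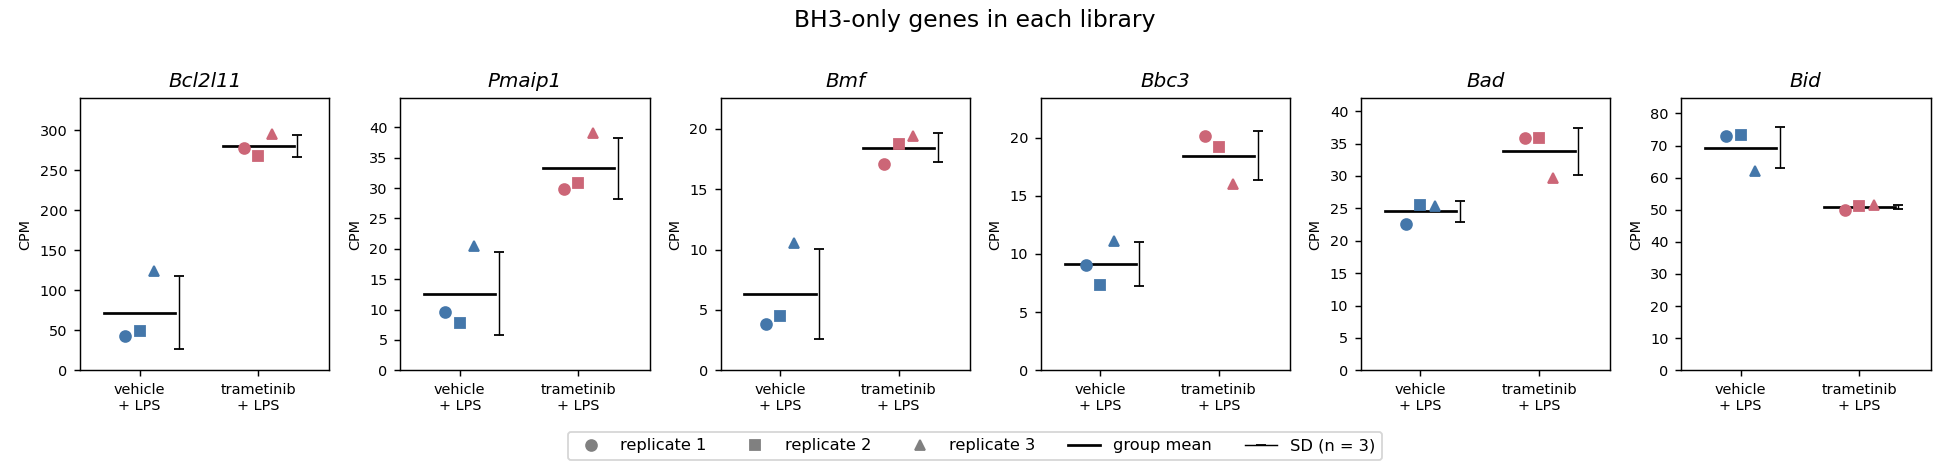
CPM of 6 BH3-only genes (vertical axes from 0, a scale per gene) by library, with marker shape for the replicate number, a line for the mean and a bar for the SD. Bcl2l11, Pmaip1, Bmf, Bbc3 and Bad are higher in every trametinib library than in any vehicle library and Bid is lower. Vehicle replicate 3 is the vehicle library nearest to the trametinib libraries except for Bad, where replicate 2 (25.5 CPM) and replicate 3 (25.4 CPM) are close together.

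Per length, Bcl2l11 lay below Bcl2l1 in vehicle replicates 1 and 2 and above it elsewhere. The ratio of Bcl2l11 to Bcl2l1, in CPM per kb and chosen after the values were seen, was 0.321, 0.391 and 2.75 in vehicle replicates 1, 2 and 3 and 12.4, 10.8 and 14.0 with trametinib. The groups did not overlap (exact permutation test, two-sided, p = 0.1). This outcome was fixed in advance, because the groups of both genes were apart in opposite directions. The test therefore adds nothing to the results of the single genes.

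Among the caspase genes, Casp2, which encodes an initiator caspase, rose from 21.8 ± 0.945 to 29.3 ± 1.65 CPM (SD, n = 3 per group, adjusted p 0.00427). Casp6 and Casp8 also rose, and Casp8 lost its call without trametinib replicate 1 (adjusted p 0.0502, the highest over its alternatives). Of 9 tested genes of other IAPs and IAP antagonists 5 rose and 1 fell, against 15.8% and 18.4% of all tested genes. Naip1 and Naip5, BIR-domain genes known as inflammasome sensors, rose from 1.05 ± 0.345 to 4.49 ± 1.17 and from 53.1 ± 1.12 to 69.3 ± 1.70 CPM (adjusted p 0.000983 and 0.00195). The Naip genes are close copies, so their separate values are less certain. Htra2, a mitochondrial protease that antagonises XIAP, fell from 48.3 ± 1.03 to 33.3 ± 1.51 CPM (adjusted p 0.000817). The number of this list that rose was 3 without trametinib replicate 1 or 2, where 1068 of 11442 and 1199 of 11435 tested genes rose.

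At the TNF receptor, where cIAP1 and cIAP2 act, 3 of 19 tested genes rose and 4 fell, close to the 15.8% and 18.4% of all tested genes. Fas, a death receptor, rose from 23.2 ± 2.43 to 48.2 ± 6.03 CPM (adjusted p 0.000457). Tnf itself fell (adjusted p 0.000178), as did Tnfaip3, encoding the A20 enzyme that restrains this receptor's signal, from 540 ± 23.6 to 378 ± 16.4 CPM (adjusted p 0.00134). With the replicate block 6 genes of the list rose, where 20.5% of all tested genes did. Only 1 rose without vehicle replicate 2 or trametinib replicate 1, where 1165 and 1068 of 11442 tested genes did.

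For all of these genes the bulk libraries cannot tell fewer cells that express a gene from less RNA of it per cell. Of the 5 dendritic cell markers, Ccr7, Zbtb46 and Flt3 were higher in every trametinib library than in any vehicle library, and Xcr1 and Cd209a overlapped. Of all tested genes, 23.4% were higher in this way. Zbtb46 ran from 0.167 to 0.432 CPM with vehicle and from 0.557 to 0.650 CPM with trametinib, Xcr1 from 0.702 to 1.67 and from 1.36 to 2.58 CPM, and Cd209a reached at most 0.0561 CPM. Flt3 ran from 0 to 0.0561 and from 0.111 to 0.177 CPM, so it rests on very few reads. Vehicle replicate 3 had the highest vehicle value of Ccr7, as of Bcl2l11. With trametinib most of the summed level of these markers was Ccr7, and the markers alone do not show a dendritic cell population. Any part of such cells in the changes of the antiapoptotic and proapoptotic genes was not tested.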

How the data were processed

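Read counts per gene, not normalized, were deposited by the authors as 1 table of 6 libraries. Tools named in the submitters' processing notes are R 3.6.0, HISAT2 2.1.0, DESeq2 1.24.0 and featureCounts 1.6.4, with mm10 as build. The gene annotation, strand setting and treatment of reads with several positions were not given in the sources used here. Of 25354 rows, 310 repeated an identifier with identical values and were removed, leaving 25044 genes. Symbols, positions and exon lengths came from GENCODE M21 (25033 identifiers found), and promoters from RefSeq (GRCm38.p6), which held all 10 genes.

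Genes were kept by filterByExpr and libraries scaled by TMM. The groups were compared in edgeR 4.0.16 by its quasi-likelihood test (robust, group only, 4 residual degrees of freedom), with Benjamini-Hochberg adjustment over all 11286 genes tested and a threshold of 0.05. SE is the log2 fold change divided by the root of F. Every adjusted p is from this test unless another is named. The procedure was tested on simulated data. Alternatives used edgeR with other scalings and filters, limma-voom 3.58.1, DESeq2 1.42.0, a replicate block and single libraries left out. R 4.3.3, Python 3.11.15 and Biopython 1.88 were used. Replicates of a group differed by more than sampling noise (chi-square per gene 5.98 to 28.1, against about 1 for 1 pool).

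The replicate numbers pair the libraries by the data: deviations from the group means had correlations of 0.346, 0.418 and 0.307 for same-numbered libraries and −0.258 to −0.0753 for the others. The labels do not state a shared mouse. The 10 genes and the 7 gene lists beside them were chosen with earlier results of these data known. All 10 genes are described, and of each other list up to 3 genes with the smallest p. Genes named beyond this were chosen after their values were seen. Some genes of these lists are not reported here.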

Additional observations from a re-analysis of the deposited data

How the results depend on the processing

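Of 130 comparisons of an antiapoptotic gene with an alternative, 116 kept the direction and the side of the threshold, 11 lost the call, 3 gained it and none changed direction. The number of antiapoptotic genes that rose was 2 with the replicate block, which changed no call for the other members than Mcl1 and Xiap, and ranged from 0 to 1 when 1 library was left out; the number that fell was 3 features with the Bcl2a1 copies summed and ranged from 4 to 5, and the total from 4 to 6. Proapoptotic genes that rose numbered 2 without a filter on low counts and 2 to 5 when 1 library was left out, and those that fell 1 to 2. The log2 fold change of the summed copies ranged from −0.88 to −0.75. Over all genes, 2428 to 4663 changed, 1068 to 2210 higher and 1360 to 2453 lower, when 1 library was left out. The drug target mRNAs, near 0 throughout, changed sign: when 1 library was left out Map2k1 ranged from −0.092 to 0.104 and Map2k2 from −0.074 to 0.063. Leaving out a library leaves fewer samples; other causes of these shifts were not tested. The paired test of the summed BCL2 level was added after seeing the data. The split between Bcl2a1 copies is limited by shared sequence.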
